A study of Mus musculus with 13 samples.

Results

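The cytosolic ribosomal protein genes encode the protein part of the ribosome that translates nuclear messages in the cytosol. They were taken from the deposited liver table as the protein-coding rows whose symbol begins with Rpl or Rps and a digit, or is Rplp0, Rplp1, Rplp2 or Rpsa, with the Rps6k kinases left out. This rule uses no measured value and found 82 genes of the 11779 listed, 42 of the large subunit, 31 of the small subunit, 3 of the stalk, 5 paralogues of usual members and Rps19bp1. Rps19bp1 fits the symbol pattern but encodes a partner of Rps19 and of the deacetylase Sirt1, not a ribosomal protein. Without the paralogues and Rps19bp1 the set had 76 genes.

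The study asked what the liver long non-coding RNA LL35 (Falcor, gene 9030622O22Rik) does, by lowering it with antisense oligonucleotides (ASOs). Total RNA was sequenced from livers of Balb/c mice taken on day 5 after tail vein injection, in 3 mice given a mix of 5 LL35 ASOs and 3 given a control ASO against firefly luciferase (Luc ASO). All ASOs carried GalNAc, a sugar that hepatocytes take up through a surface receptor, and the LL35 mix was given at 150 mg/kg, which the labels state for each ASO and the methods as the total of the mix. The sex and age of the mice are not given in the sources used here. A further 7 samples of AML12, a mouse hepatocyte line taken on day 2 (4 with the LL35 ASO mix at 20 nM of each ASO and 3 with Luc ASO), were not analysed here, nor was LL35 itself.

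The only measured quantity used here was the authors' mean normalised count of each gene over the liver libraries they compared, with the LL35 ASO and Luc ASO mice pooled. It carries no value of a single mouse, so no error could be given and no comparison between the ASO groups was made. Every value below is therefore a level of these genes in the pooled livers, described without a test. The depth behind a value is unknown. Mean normalised counts in the table ran from 15.6 to 1.217e+06 (Alb, serum albumin, 10.8% of the sum of all rows), with a median of 234.7. All 8 hepatocyte markers were listed and held 14.8% of the sum. Of the markers of other liver cells, 5 of 5 Kupffer cell, 4 of 4 sinusoidal endothelial, 4 of 4 stellate cell and 1 of 4 cholangiocyte genes were listed, and of lymphocytes 0 of 2 B cell and 1 of 2 T cell genes (Cd3e, 18.6). In whole liver a difference in level between genes cannot be divided among these cells, and fewer cells of a type and less RNA per cell cannot be told apart.

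Ribosomal proteins are made in nearly equal numbers and joined to ribosomal RNA in the nucleolus. Their messages are among the most abundant of most cells and usually begin with a C followed by a run of pyrimidines, the 5′ terminal oligopyrimidine (TOP) motif, through which the mTOR kinase controls their translation. Mammalian genomes hold many processed pseudogenes of them, copies of the spliced message that were written back into the genome. The liver makes the bulk of plasma protein and needs many ribosomes to do so.

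The stretch around the annotated start of transcription is shown here for members with and without the TOP motif, because this was the feature outside the protein that most members could be compared on. The sequences are from RefSeq on GRCm38.p6, on the strand of the gene, with 15 bases before the start and the first 15 bases of the transcript. Capitals mark the run of pyrimidines, opening with a C, that lies nearest to the start, as far as it falls in the window.
Rps27, highest per kb of exon of those with the motif at the start, chr3:90213634-90213663, minus strand: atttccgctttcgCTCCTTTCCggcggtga
Rpl38, with the run opening on the first base, chr11:114668565-114668594, plus strand: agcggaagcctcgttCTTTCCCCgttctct
Rps6, target of the kinase downstream of mTOR, chr4:86857353-86857382, minus strand: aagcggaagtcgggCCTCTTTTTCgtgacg
Rpl14, with a long run across the start, chr9:120571502-120571531, plus strand: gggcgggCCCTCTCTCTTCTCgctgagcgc
Rplp2, of the stalk, chr7:141447636-141447665, plus strand: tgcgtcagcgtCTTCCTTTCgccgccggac
Rps18, a common RT-qPCR reference, chr17:33955651-33955680, minus strand: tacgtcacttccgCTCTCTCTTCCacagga
Rpl4, the member with the highest count, where the run ends upstream of the start, chr9:64173372-64173401, plus strand: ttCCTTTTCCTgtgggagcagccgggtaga
Rps15, high per kb and with no such run in the window, chr10:80292416-80292445, plus strand: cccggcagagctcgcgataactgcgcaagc
Rps10, the member with the lowest count, chr17:27635230-27635259, minus strand: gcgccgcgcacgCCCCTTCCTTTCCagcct
Rpl13a, low and with the run just downstream, chr7:45128731-45128760, minus strand: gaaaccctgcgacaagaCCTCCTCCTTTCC

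Of the 62 members with an entry in the promoter table, 13 (20.97%) had the motif, a C followed by at least 4 further C or T on the gene's strand, with the C on the annotated first base. The same held for 2.95% of 9156 listed protein-coding genes and for 3.01% of the 27025 genes of the promoter table. None of 67 mitochondrial ribosomal protein genes, 32 proteasome genes and 22 ribosome biogenesis genes had it. Among other messages known to carry a TOP, 4 of 10 had it. The 5 genes of the elongation factor list with an entry did not have it, though some are classic TOP messages. Within 5 bases of the start the motif was found in 29 members (46.8%), beside 24.1% of listed protein-coding genes and 25.4% of mitochondrial ribosomal protein genes. Within 20 bases it was found in 49 members (79.03%) and in 55.4% of listed protein-coding genes. The longest run of pyrimidines near the start had a median of 7.5 bases in members and of 5 bases in listed protein-coding genes. A match describes these letters at an annotated start and is not a measured start.

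**Figure D1:**
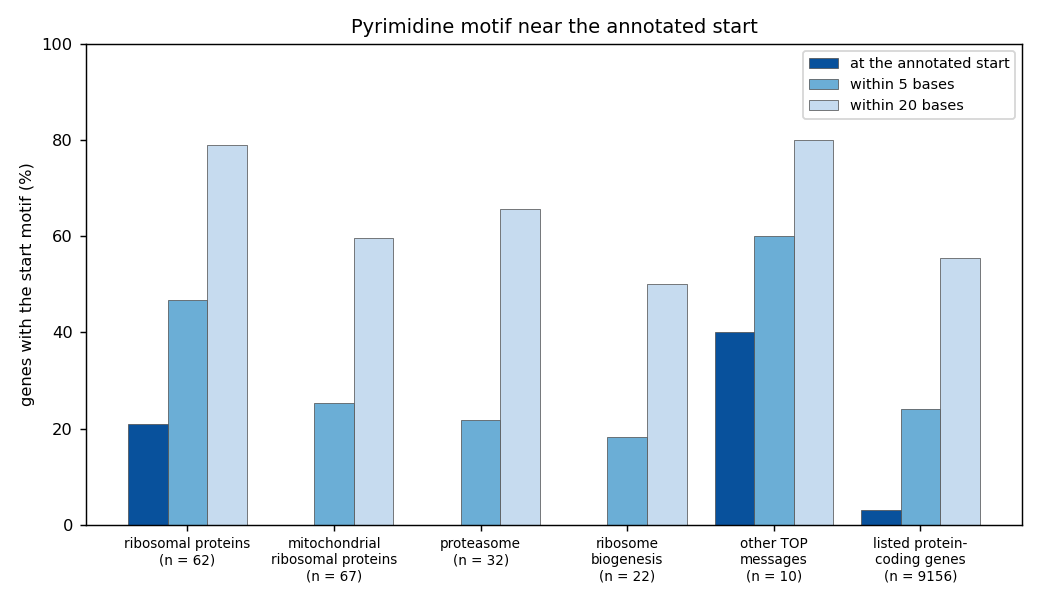
Share of genes with a C followed by at least 4 pyrimidines with the C on the annotated start (dark), within 5 bases (middle) or within 20 bases (light), by gene set, with the number of genes that had a promoter entry. Ribosomal protein genes (20.97% at the start) and other TOP messages stand above listed protein-coding genes (2.95%). Within 20 bases the shares were 79.03% and 55.4%.

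The 13 members with the motif at the start had levels that differed widely, though none was among the 10 highest per kb of exon. Per kb of exon they ran from 946 for Rps27, 854 for Rps21 and 613 for Rpl28 down to 102 for Rps15a, 37.9 for Rpl35a and 7.95 for Rps10. Of the 10 highest, Rpl4, Rps15, Rplp0 and Rps3a1 had an entry without the motif at the start.

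Together the 82 genes summed to 68139.5 mean normalised counts, 0.603% of the sum over all listed genes. Single members ran from 18.4 (Rps10, ENSMUSG00000052146) to 3530 (Rpl4, ENSMUSG00000032399), a ratio of 192, with a median of 742. A total of 41 members lay from 500 to 1000, 23 at 1000 or above, 13 from 100 to 500 and 5 below 100. The 10 highest held 28.2% of the members' sum and the 10 lowest 1.35%. The level of 72 members was above the median of all listed genes.

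**Figure D2:**
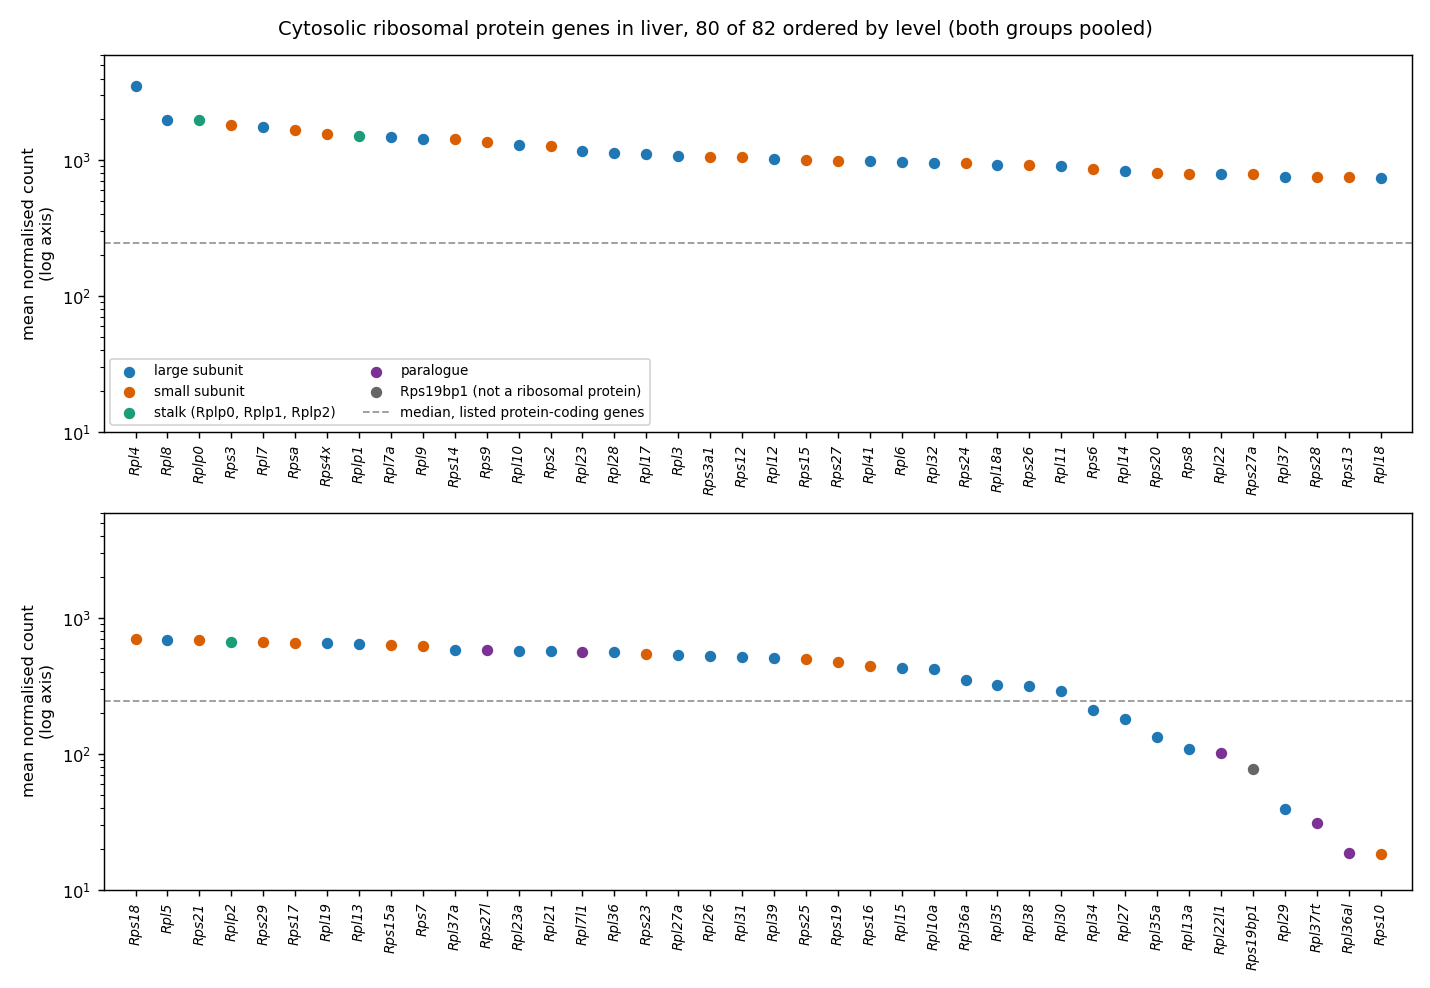
Mean normalised count (log axis) of 80 of the 82 genes in the pooled livers, ordered from the highest (top left) to the lowest (bottom right) and coloured by subunit; the dashed line is the median of listed protein-coding genes. Levels fell slowly from 3530 (Rpl4) to 288 (Rpl30) and then more steeply over the last 10 genes to 18.4 (Rps10).

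Counts grow with the length of a message, and ribosomal protein messages are short, so levels were also set per kb of exon. On that scale the members had a median of 410, beside 52.1 for listed protein-coding genes, and 75 of the 82 lay above that value. Of the 82, 46 (56.1%) were in the top 10% of listed protein-coding genes, where the raw count placed 10. The 10 highest per kb of exon included Rplp1 (3011, rank 132 of 11385 protein-coding genes), Rpl4 (1759), Rps15 (1602), Rpl36 (1468), Rpl8 (1467), Rplp0 (1190), Rps3a1 (1085) and Rpl32 (989). The 10 lowest were Rps10 (7.95, rank 10427), Rpl36al (13.7), Rpl29 (35.0), Rpl35a (37.9), Rpl37rt (41.5), Rpl13a (51.2), Rpl22l1 (51.2), Rps19bp1 (71.0), Rpl34 (80.1) and Rpl30 (95.5). Of these low genes, 3 are paralogues and Rps19bp1 is no ribosomal protein, while Rps10, Rpl29, Rpl35a, Rpl13a, Rpl34 and Rpl30 are usual members.

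Small subunit genes had a median of 515 per kb of exon and large subunit genes of 345, a ratio of 1.49. Grouped by symbol alone, with the stalk, paralogues and Rps19bp1, the 33 Rps genes had a median of 515 and the 49 Rpl genes of 336, a ratio of 1.53 that fell to 1.16 with the length of the longest transcript. Per kb of coding sequence the medians were 1810 and 1319. The spread within either subunit was far wider than the gap between them, from 7.95 to 1602 per kb of exon in the small and from 35.0 to 1759 in the large subunit.

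The stalk is the arm of the large subunit that calls in the elongation factors. Its base Rplp0, a protein also much used as an RT-qPCR reference, had a mean normalised count of 1974, and its acidic partners Rplp1 and Rplp2 had 1502 and 666. Rplp1 and Rplp2 work as pairs bound to Rplp0. Per kb of coding sequence the values were 4393 for Rplp1, 2076 for Rplp0 and 1932 for Rplp2. On that scale Rplp0 and Rplp2 lay close together and Rplp1 above both. Per kb of exon Rplp1 (3011) was again the highest, but Rplp0 (1190) and Rplp2 (322) lay further apart.

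Rpl4 lines the tunnel through which the new chain leaves, and it had the highest count of all members (3530). Rpl8 and Rpl3, which reach toward the peptidyl transferase centre, had 1994 and 1070, and Rpl10, among the last proteins to join the large subunit, had 1288. Rpl10a, of the L1 stalk where spent transfer RNA leaves, had 426. Per kb of coding sequence Rpl4 (2809) and Rpl8 (2586) were near each other, and Rpl3 (885) and Rpl10a (654) were lower.

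The 8 proteins around the exit of the tunnel ran from 324 for Rpl35 to 1114 for Rpl17, with a median of 552. The others were Rpl22 (791), Rpl19 (654), Rpl23a (575), Rpl26 (530), Rpl31 (517) and Rpl39 (506). Rpl39 is among the shortest proteins of the ribosome and, per kb of coding sequence, was the highest of these at 3306. Per kb of exon Rpl39 had 353, and Rpl17 was the highest of the 8 at 840.

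In the small subunit, Rps3 and Rps2 sit where the message enters and had 1827 and 1275. Rps23 and Rps15 reach the decoding site, and Rps14 stands on the platform where the message leaves. Their counts were 545, 1009 and 1430. Rps6, the member phosphorylated by the S6 kinases, had 856. Rps27a, made as a fusion with ubiquitin, had 789.

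Among the remaining small subunit genes, high counts were found for Rpsa (1680), Rps4x (1551) and Rps9 (1371). Rpsa sits on the back of the small subunit and is also known as the laminin receptor, and Rps4x is on the X chromosome. Rps3a1 (1060) and Rps12 (1060) were alike in count, but Rps12 was higher per kb of coding sequence, at 2386 beside 1338. Per kb of exon the order was reversed, with Rps3a1 at 1085 and Rps12 at 523. Rps25, which several viral messages need to recruit the ribosome, had 503. Some of the smallest products stood out on the coding scale, with Rps29 at 3963, Rps27 at 3914 and Rps28 at 3650. Rps21, with a coding sequence of 249 bases beside 252 in Rps27, was lower at 2777. Across the 76 usual members, coding length and level per kb of coding sequence had a rank correlation of -0.28. Coding length is also the divisor of that level, so no conclusion is drawn from this value. With the count itself the rank correlation was 0.44.

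Among the remaining large subunit genes, Rpl7 (1743), Rpl7a (1481) and Rpl9 (1441) were the highest. Rpl23, a further Mdm2-binding member, had 1174 and Rpl12, at the base of the stalk, had 1016. Rpl38, known for its part in the translation of Hox messages, had 318, or 1514 per kb of coding sequence. Rpl29, which also binds heparin, had 39.4, the lowest count of a usual large subunit gene, and 82.02 per kb of coding sequence.

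Rpl5 and Rpl11 bind the 5S ribosomal RNA and, when ribosome assembly fails, the p53 ligase Mdm2. They had counts of 695 and 906, or 780 and 1697 per kb of coding sequence. Diamond-Blackfan anaemia, a failure of red cell production, follows loss of a single copy of any of several ribosomal protein genes. The 9 such genes chosen here, a partial list, ran from 18.4 (Rps10) through 134 (Rpl35a), 473 (Rps19) and 621 (Rps7) to 948 (Rps24). Their median count was 656, close to that of the large subunit (675), but per kb of exon it was 177 beside 345. Per kb of coding sequence the medians were 1066 and 1319.

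Members that serve as reference genes in RT-qPCR differed widely in level. Rplp0 had 1974, Rpl32 953, Rps18 699, Rpl19 654 and Rpl13a 108. Rpl13a was the lowest of these on each scale, at 178 per kb of coding sequence beside 1112 for Rpl19. Most of the coding sequence of Rpl13a is shared with other genes, as given below, and the levels were not corrected for this.

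Other translation genes gave the scale. The 76 mitochondrial ribosomal protein genes, which serve the separate ribosome of the mitochondrion, had a median of 75.6 per kb of exon and held 0.151% of the sum. The 38 proteasome genes were also taken by symbol, with the immunoproteasome subunits Psmb8, Psmb9 and Psmb10, the assembly chaperones Psmd5, Psmd9 and Psmd10 and the unrelated Psmc3ip among them. They had a median of 231 per kb and held 0.236%. The 26 ribosome biogenesis genes, among them Ncl (nucleolin), had a median of 64.3 per kb. The list of 7 elongation factor genes also held the kinase Eef2k and Eef1e1, which are not elongation factors. These were its lowest genes, at 19.3 and 30.6 per kb of exon. Eef1a1 (20632) and Eef2 (17424) had counts above every ribosomal protein, whereas Eef1b2 (1113) and Eef1g (696) lay within their range. From the 10th to the 90th percentile the members ran from 81.7 to 992 per kb of exon, a ratio of 12.1, and the proteasome genes from 51.6 to 441.

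**Figure D3:**
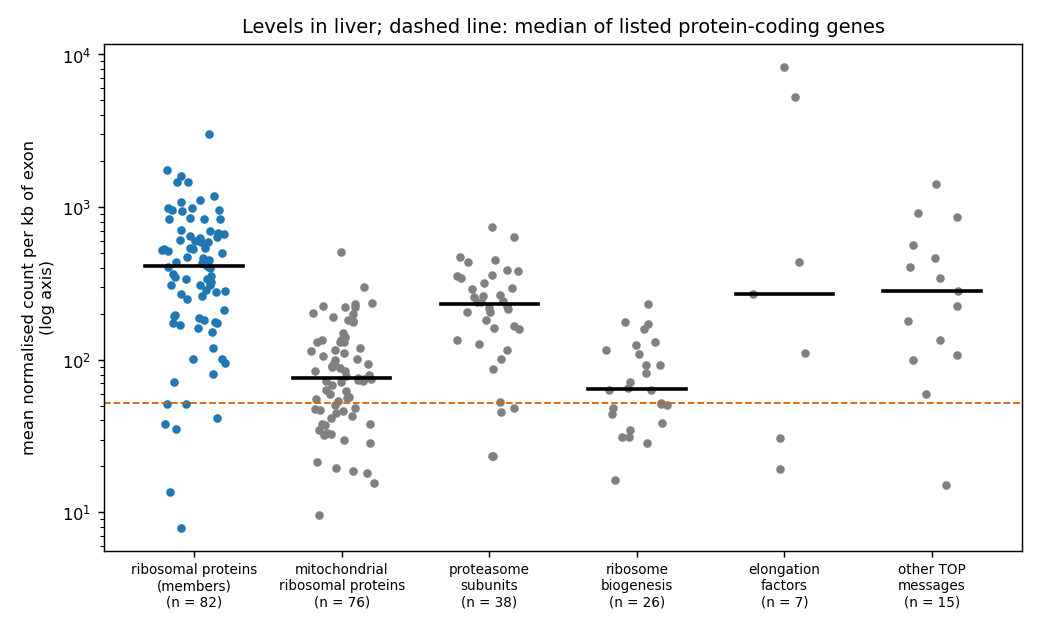
Mean normalised count per kb of exon (log axis) in the pooled livers, 1 point per gene, for the ribosomal protein genes (blue) and 5 other sets (grey); black bars are medians and the dashed line is the median of listed protein-coding genes (52.1). The ribosomal protein genes have the highest median (410) and their lowest genes lie below the dashed line.

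The authors' aligner counted reads that had a single place in the genome. Members were therefore also described by how much of their coding sequence is found once among annotated transcripts. Each longest coding sequence was read in windows of 50 bases, and a window was unique where no transcript of another gene held it on either strand. The untranslated parts of the exons were not read in windows, although their reads are in the counts. The median member had 10.5% unique windows, whereas the median of 11281 other listed protein-coding genes was 100%. No unique window was left in 27 of 81 members (33.3%), beside 0.789% of the other genes. Every window was unique in 2 members and in 68.8% of the other genes.

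Most of the genes that shared sequence with members were pseudogenes. Annotated transcripts of 1135 genes at other loci held at least 1 coding window of a member, and 1087 of these were annotated as pseudogenes and 32 as protein-coding. The median member shared windows with 9 genes elsewhere, and 20 members shared with a protein-coding gene. Rplp2, for example, had 66.2% of its windows in Wdr89 and 9.80% in pseudogenes. Rpl7a shared with 123, Rpl29 with 84, Rpl21 with 82 and Rps2 with 71. Rpl4, Rpl8, Rps3, Rps9, Rpl14 and Rpl41 each shared with 1. In 17 members a single gene elsewhere held every window of the coding sequence, as Rpl15-ps3 did for Rpl15 and Rps27rt for Rps27.

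Among members with mostly unique sequence, 8 of those described here had levels close to each other. Of the 11 usual members with more than 50% unique windows, 9 are described here. The level per kb of coding sequence ran from 2059 (Rpl22) to 2809 (Rpl4) in 8 of them, a ratio of 1.36. It reached 7125 in the ninth, Rpl41, whose product is the shortest of the ribosome. Over all 9 the ratio was 3.46. With the 2 members not described the range was wider. The other 65 usual members ran from 36.2 (Rps10) to 4393 (Rplp1), a ratio of 121, and 48 of them lay below the lowest of the 9. The medians were 2506 and 1407. Between Rpl22 and Rpl4 lay Rps15 (2320), Rpl32 (2353), Rps9 (2355), Rps3 (2506), Rpl8 (2586) and Rps21 (2777). Just under the bound of 50%, Rps14 (48.3% unique) was at 3157 and Rps19 (46.7% unique) at 744. A bound below these shares would have widened the range.

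The order held only loosely over all members. The median per kb of coding sequence was 1271 in the 27 members with no unique window, 1278 in the 13 with up to 10%, 1635 in the 27 with 10% to 50% and 2354 in the 14 above 50%. Across 81 genes the rank correlation of unique share and level per kb of coding sequence was 0.30, and across the 76 usual members 0.37. The points share their libraries, and genes are not independent replicates.

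**Figure D4:**
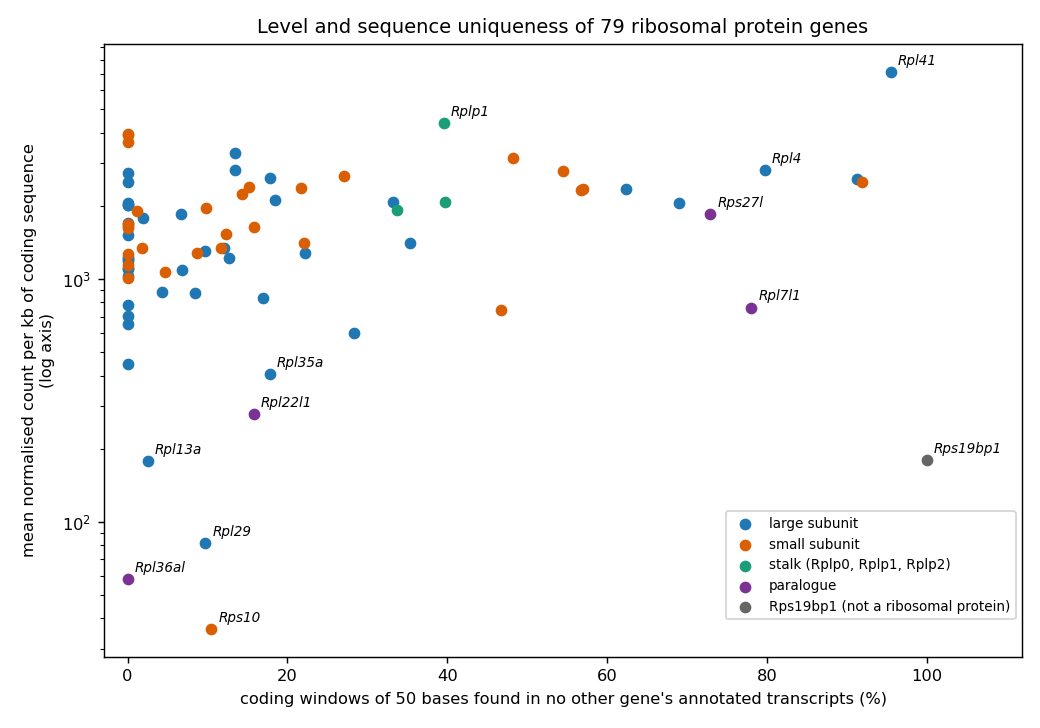
Mean normalised count per kb of coding sequence (log axis) against the percent of coding windows of 50 bases found in no other gene's annotated transcripts, 1 point per gene for 79 genes, coloured by subunit. Usual members plotted above 50% lie from 2059 to 7125, whereas members below 50% reach down to 36.2 (Rps10), and Rps19bp1 and the paralogues Rpl7l1 and Rps27l lie apart at the right.

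The lowest usual members had few unique windows, but so did many higher ones. Rps10 had 10.5% unique windows, 9.17% shared with an overlapping gene and 80.3% shared with genes elsewhere. Rpl29 had 9.74% unique and Rpl35a 17.8%. Rpl13a had 2.5% unique, with 58.8% of its windows shared with a gene that overlaps it. Rpl27, at a count of 182, had none. Rpl9 (1441), Rpl10 (1288), Rpl28 (1127) and Rps27 (986) also had none, however, and Rps29 had none at 3963 per kb of coding sequence. A gene without a unique coding window can still be counted from its untranslated parts. In Rpl9 the coding sequence is 576 of 3081 bases of exon, and in Rps29 168 of 693. The number of reads that the single-place rule removed from each gene was not measured, and its part in these levels was not tested.

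Rows of pseudogenes can gain few counts where only reads with a single place are counted, and rows under 15.6 are not listed. A total of 11 rows named as pseudogenes or copies of ribosomal protein genes were listed, with a sum of 687, which was 1.01% of the members' sum. The highest were Rps18-ps6 at 305, which was 43.6% of the count of Rps18 (699), then Rpl3-ps1 at 79.1 (7.39% of Rpl3), Rps7-ps3 at 68.5 (11.03% of Rps7) and the Rpl3 copy Gm15712 at 53.8. Reads of a copy and its parent may have been divided between them, so these values and the parents' counts are uncertain.

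Paralogues can take the place of a usual member in some ribosomes or tissues. Rpl22 had a count of 791 and Rpl22l1 of 102, a ratio of 7.76, with 72.7% of coding bases identical. Rpl7 had 1743 and Rpl7l1 563, a ratio of 3.10, and Rps27 had 986 and Rps27l 581, a ratio of 1.70. Rps27l, which p53 can induce, thus came nearest to its usual member in counted reads, also per kb of coding sequence (2.12 times lower). The genes of these pairs differed in their share of unique windows, however. It was 0% in Rps27 and 72.9% in Rps27l, 33.2% in Rpl7 and 78.1% in Rpl7l1, and 69.0% in Rpl22 and 15.8% in Rpl22l1. How far this shifted the ratios was not tested. Rpl36a had 351 and Rpl36al 18.5, a ratio of 19.0, with 87.7% of coding bases identical. Neither had a unique window, through sharing with pseudogenes and other genes, so both counts are uncertain. Rpl37 had 756 and Rpl37rt, annotated in GENCODE as a transcribed pseudogene, 31.2. This pair was added after its values were seen. The paralogues Rpl3l, Rpl10l, Rpl39l and Rps27rt and the usual member Rpl24 were not analysed here.

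Ribosomal proteins whose symbols fall outside the rule were looked at for completeness. Rack1, the scaffold on the head of the small subunit, had 2373, and Fau, made as a fusion to a ubiquitin-like protein, had 884.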

How the data were processed

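Libraries were made from TRIzol-extracted liver RNA after rRNA depletion with the NEBNext Ultra II Directional kit. Per the labels and the study's methods, reads were aligned and counted per gene with STAR 2.5.3a (GeneCounts, reads placed once), with Ensembl annotation whose release and genome build are not given in the sources used here. The read length could not be settled from the methods. The authors normalised counts with DESeq2 (RLE) and deposited, for each gene, its mean normalised count over the compared liver libraries, a signal that is never negative and holds no value of a single mouse. The table lists no gene with a mean under 15.6. A further 5 columns hold the authors' comparison of LL35 ASO with Luc ASO livers (log2 fold change, its standard error, test statistic, p-value and adjusted p-value) and were not used, so no comparison of groups was made. There were 3 mice in either group. The depth per mouse is unknown.

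Levels were divided by the union of exons, the longest transcript or the longest coding sequence in GENCODE M21 (GRCm38). Its IDs matched 11754 of 11779 listed genes and all 82 members, of which 81 had a coding sequence. Sequence sharing was counted over its transcripts in Python 3.11.15 (numpy 2.4.6, pandas 2.3.3) and tested on simulated sequences of 200 genes with known copies. The aligner worked on the genome, so transcript windows only approximate what it could place. RefSeq promoters were matched by symbol. Coding sequences of paralogue pairs were aligned with Biopython 1.88. The members, roles and lists were chosen with earlier results of these data known, and the pair Rpl37 and Rpl37rt and the analysis of shared windows were added after the table was seen. Genes named were the 10 members highest and the 10 lowest per kb of exon, the role lists, paralogue pairs and pseudogene rows, and others singled out by their values. Alternatives of length, denominator, membership, window and distance from the start were tried. Some items are not reported here singly, but stay in sums, medians and counts over the set.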

Additional observations from a re-analysis of the deposited data

How the results depend on the processing

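No paired analysis was possible because the deposited table holds no columns of single mice, and for the same reason no mouse could be left out in turn. Positions found once in the genome could not be counted without a genome and were replaced, after seeing the data, by unique coding windows. The members' share of the sum moved from 0.603% to 0.619% over protein-coding genes, 0.591% without paralogues and Rps19bp1, and 1.16% per kb. Their median of 410 per kb of exon was 694 with the longest transcript, 1635 with the coding length, 6276 per 1000 unique windows (40 members with at least 50) and, another choice made after seeing the data, 439 with at least 100 counts (77 members). The ratio of Rps to Rpl medians, grouped by symbol, kept its direction, at 1.16, 1.37, 1.46, 1.17 and 1.52 with the longest transcript, the coding length, the usual members alone, unique windows and at least 100 counts, against 1.53. Members in the top 10% of protein-coding genes numbered 46, 52 and 57 with the 3 lengths but 10 with no length. The ratio of the 90th to the 10th percentile fell from 12.1 to 4.68 with the coding length, 9.42 for the usual members, 7.45 with unique windows and 7.43 with at least 100 counts. The median unique share was 6.34%, 16.9% and 28.5% with windows of 36, 75 and 100 bases, chosen after seeing the data, against 10.5%. Members with a start motif rose in number from 13 to 29 within 5 and 49 within 20 bases, the last also chosen after seeing the data. Exon and coding lengths ordered the members alike only in part (rank correlation 0.71 over 81 genes).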

Other observations

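Many small nucleolar RNAs, which guide the modification of ribosomal RNA, lie in introns of ribosomal protein genes. In GENCODE M21, 30 of the 82 members (36.6%) held at least 1 of 58 annotated snoRNA genes, 20 of them in the large and 10 in the small subunit. Members with a snoRNA gene had a median count of 893 and the other members of 655. Of 38 snoRNA rows in the table, 4 lay within a member. Snord15a, in Rps3, had a count of 317, or 17.4% of its host, and Gm26448, in Rpsa, had 266, or 15.8%. Snora21, in Rpl23, had 44.5 and Gm22270, in Rpl5, had 36.01. Whether these counts came from the snoRNA or from unspliced host message was not tested.

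Across the 76 usual members the count had a rank correlation of 0.041 with exon length and of 0.44 with coding length, a description across genes that share their libraries. Rps15a and Rps24, for example, had 102 and 152 per kb of exon but 1635 and 2377 per kb of coding sequence.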
